A study of Mus musculus with 12 samples.

Results

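RNA sequencing of BMEL cells transformed by mutant H-Ras was used to compare cells labelled as Cdk19 knockout with cells labelled as wild type. The comparison took 6 of the series' 12 libraries, chosen by their titles: 3 labelled as Cdk19 knockout with RasG12V and 3 labelled as wild type with RasG12V. BMEL (bipotential mouse embryonic liver) cells are a line of hepatic progenitors that can form hepatocytes and cholangiocytes, and this line came from a mouse with floxed Cdk8 alleles. Both groups carried H-Ras with the G12V change and were collected in exponential growth on collagen, in medium with serum, insulin, IGF2 and EGF. The other 6 libraries, 3 of untransformed wild-type cells and 3 of Cdk8 knockout RasG12V cells, entered the fits and serve below as reference levels. The wild-type RasG12V group is called RasG12V below, and the knockout groups, which both carry RasG12V, are called Cdk19 KO and Cdk8 KO. The labels do not say how Cdk19 was removed, whether a line was 1 clone, or that the libraries of a group came from separate cultures. The p-values therefore measure the spread between these libraries, which may be technical, and a difference between cell lines cannot be told apart from a difference due to the genotype.

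Cdk19 and its paralog Cdk8 are kinases that bind cyclin C and, with Med12 and Med13 or their paralogs, form a module that docks on Mediator, which carries signals from transcription factors to RNA polymerase II. The module can hold back or promote transcription, depending on the gene, and its kinases phosphorylate transcription factors as well as Mediator itself. The kinases share much of their sequence and can act in place of each other at many genes.

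Each of the 6 libraries held between 24823560 and 33285861 gene counts, and levels below are CPM, counts scaled to a library of 1000000 gene counts after TMM scaling. RasG12V replicate 3 stood apart from the other libraries of its group. Between RasG12V 1 and RasG12V 2 the mean chi-square per gene was 4.78, while RasG12V 3 gave 96.6 and 88.9 against them, and pairs of Cdk19 KO libraries gave 11.8 to 20.1. RasG12V 3 also had the highest share of mitochondrial counts, 1.92% against a lowest value of 1.18%, and the median level of its genes of DNA replication relative to RasG12V 1 and 2 was -0.98 on the log2 scale. The untransformed replicate 3 stood apart in the same kind of check: limma gave these libraries sample weights of 0.112 (RasG12V 3) and 0.195 (untransformed 3), against 0.826 to 2.11 for the others. The markers of hepatic progenitors summed to between 6478 and 8275 CPM in RasG12V and between 6406 and 7327 CPM in Cdk19 KO. Most of this was Krt8, Krt18 and Krt19. Of 18 markers 3 were under 1 CPM in all 6 libraries, Epcam and Onecut1 among them, and 1, Dlk1, was at 0. Mesothelial markers, which share Krt19, summed to 3171 to 4334 CPM in RasG12V and 2902 to 3339 CPM in Cdk19 KO. Msln read 1292 to 1374 and 1090 to 1186 CPM, and 3 of the 7 were under 1 CPM in all 6 libraries. Macrophage markers summed to 33.6 to 60.5 CPM in RasG12V and 34.5 to 38.7 CPM in Cdk19 KO. Most of this was Cd14, at 29.4 to 52.5 CPM in RasG12V and 29.6 to 33.5 CPM in Cdk19 KO. Cd68 read 3.13 to 6.75 and 3.56 to 4.15 CPM, and Adgre1, Tyrobp and Cd3e were among those at 0. Stellate cell markers summed to at most 2.45 CPM, with Col1a2, Col3a1, Lum and Thy1 at 0. In bulk RNA, fewer cells of a type and less RNA per cell cannot be told apart.

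Cdk19 itself was lower in the cells labelled as its knockout, without being absent. It read 64.7, 67.2 and 93.6 CPM in RasG12V 1 to 3 and 51.2, 45.03 and 53.1 CPM in Cdk19 KO 1 to 3, with no overlap between the groups. The log2 difference was -0.60 ± 0.13 (SE) with all 12 libraries in the fit, which missed the threshold (edgeR quasi-likelihood test, Benjamini-Hochberg adjusted p = 0.243). Without both replicates 3 it was -0.40 ± 0.08 and passed (adjusted p = 0.0136). Counts summed over a whole gene do not test a deleted part, so these values do not check the knockout. Cdk8 missed the threshold, with 56.3, 56.4 and 50.9 CPM in RasG12V and 52.7, 57.1 and 55.2 CPM in Cdk19 KO (log2 difference 0.01 ± 0.08 with all libraries, adjusted p = 0.976). Hras, whose count can include reads of the introduced H-Ras, read 509.7, 537 and 313 CPM in RasG12V and 439, 402 and 425 CPM in Cdk19 KO. RasG12V 3 was the lowest of all 6 for Hras, and the log2 difference was -0.10 with it (adjusted p = 0.915) and -0.30 without both replicates 3 (adjusted p = 0.0133).

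Med12l was the other called member of the kinase module's 7 genes. This gene, the paralog of Med12, read 1.75, 1.96 and 1.02 CPM in RasG12V and 0.741, 1.07 and 0.736 CPM in Cdk19 KO, so that only RasG12V 3 came down into the knockout range, and it fell 2.17-fold without both replicates 3 (adjusted p = 0.0251). With all libraries its adjusted p was 0.431. Ccnc, which encodes cyclin C, differed by -0.05 ± 0.08 and Med12 by -0.03 ± 0.07 on the log2 scale, and neither passed (adjusted p = 0.82 and 0.875). Of the 26 tested subunits of the Mediator core, 0 passed the edgeR test in the 3 fits of the comparison, 0 had an unadjusted p below 0.05 without both replicates 3, and DESeq2 and limma-voom called 0. Their median log2 difference was 0.02.

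With all 12 libraries, 1 gene rose and 1 fell in Cdk19 KO among 14283 tested, 0.014% of them (0.007% in each direction), while 1089 genes, 7.62%, had an unadjusted p below 0.05. Leaving out RasG12V 3 gave 8 rises and 2 falls among 14571 genes, 0.0686% (0.0549% and 0.0137%). Leaving out the untransformed replicate 3 as well gave 161 rises and 130 falls among 14493 genes, 2.01% (1.11% and 0.897%), and 29 of the rises and 19 of the falls were at least 2-fold (1 on the log2 scale). The untransformed library is not in the comparison, but all groups share an estimate of the spread and its deviation enters that estimate. A fit of only the 5 libraries of the comparison without RasG12V 3 called 278 genes, 234 of them among the 291. Both genes of the first fit and all 10 of the second were among the 291, in the same direction. The median absolute log2 difference of the 291 was 0.47.

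The account below takes its calls from the fit without both replicates 3, a basis adopted after its number of calls had been seen. "Rose" and "fell" refer to that fit, and its adjusted p is given unless another fit is named. RasG12V is then only 2 libraries, and the count depends on each of them: it was 42 without RasG12V 1, 40 without RasG12V 2 and 141 without Cdk19 KO 1. The split between rises and falls also moved with scaling, to 200 rises and 101 falls with upper quartile factors. RasG12V 3 was not used to call a gene, and its values are given for nearly all genes described. It was used to choose genes, however. The 15 largest rises and 15 largest falls named had to have no overlap with any RasG12V library, replicate 3 included. Other genes were chosen because RasG12V 3 lay beyond the knockout libraries. For such genes the position of RasG12V 3 was set by the choice and is no separate result. Over all genes, 2106 of 14493, 14.5%, had no overlap between the 3 Cdk19 KO and the 3 RasG12V libraries. Counts of called list members below stand beside 1.11% risen and 0.897% fallen over all genes tested.

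**Figure D1:**
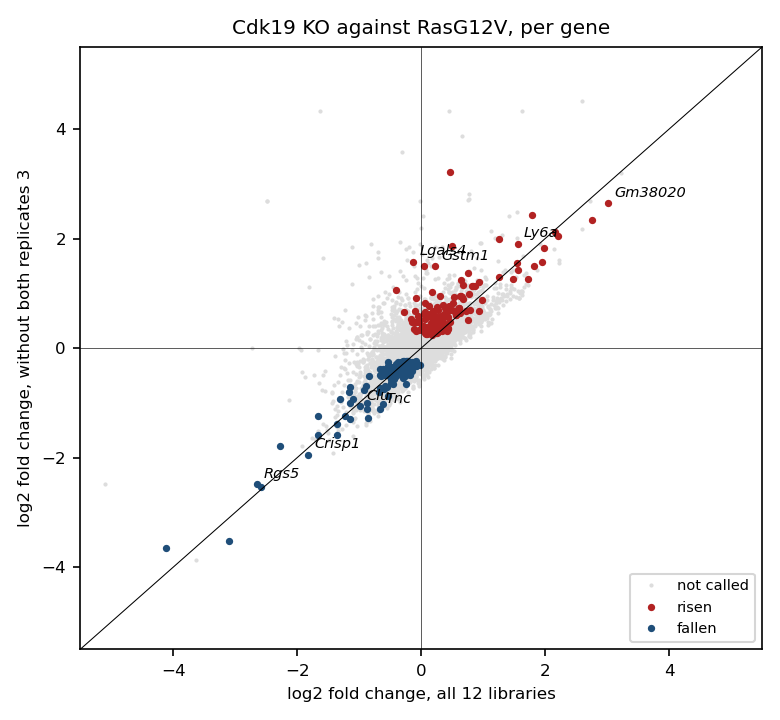
Log2 fold change of each gene in Cdk19 KO against RasG12V with all 12 libraries in the fit (horizontal axis) and without untransformed replicate 3 and RasG12V replicate 3 (vertical axis); red and blue points are the 161 genes that rose and the 130 that fell in the latter fit, grey points the other genes tested in both, and the diagonal marks equal values. Fallen genes such as Crisp1 and Clu lie near the diagonal, while risen genes such as Lgals4 and Gstm1 lie well above it, with values near 0 once RasG12V replicate 3 is included.

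The falls held their size when RasG12V 3 was included and the rises did not. The median absolute log2 difference of the 130 falls was 0.41 in both fits, and 130 of 130 kept their sign. For the 161 rises it went from 0.52 to 0.27, and 17 changed sign. Among the falls RasG12V 3 lay on the side of RasG12V 1 and 2, above all 3 knockout libraries, for 89 genes (68.5%), inside the knockout range for 11 and below it for 30 (23.1%). Among the rises it lay on the side of RasG12V 1 and 2 for 64 genes (39.8%), inside the knockout range for 33 and above it for 64 (39.8%). Genes that were not called, but whose knockout libraries all lay above RasG12V 1 and 2 or all below them, give a reference that is not matched for size of difference. Of 2329 such genes on the high side RasG12V 3 was near its group for 39.3%, about the share among the rises, and of 2431 on the low side for 42.7%, against 68.5% among the falls.

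**Figure D2:**
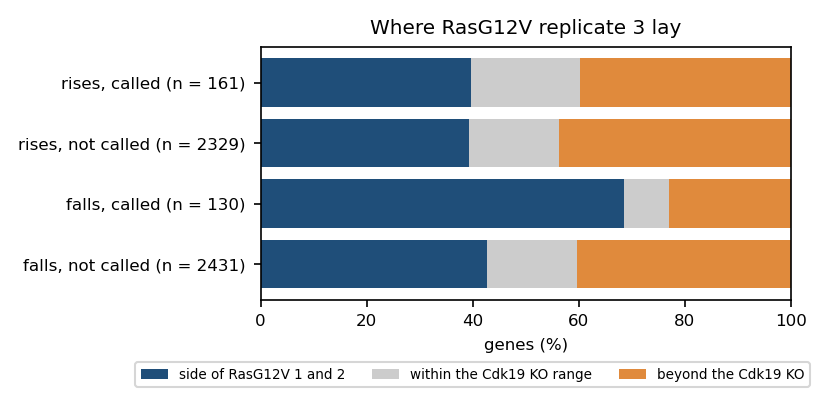
Share of genes (horizontal axis, percent) for which RasG12V replicate 3 lay on the side of RasG12V 1 and 2, inside the range of the 3 Cdk19 KO libraries or beyond them, for rises and falls called without that library and for genes not called whose knockout libraries were all on one side of RasG12V 1 and 2. The falls stand out, with 68.5% near RasG12V 1 and 2, while the called rises, at 39.8%, sit near the uncalled ones at 39.3%.

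Rgs5 and Gm38020 passed with every library included, close to the threshold. With 1 library left out of that fit, neither passed without Cdk19 KO 1 (adjusted p = 0.309 for both) or Cdk19 KO 2 (0.243 for both). Rgs5 also missed without RasG12V 1 (0.108), and Gm38020 without RasG12V 2 (0.174) or Cdk19 KO 3 (0.137). Neither passed with only the compared groups in the fit (0.329 for both), and Gm38020 missed with a replicate block (0.0671). Rgs5 encodes a regulator of G protein signalling best known from pericytes. It read 2.81, 2.004 and 3.20 CPM in RasG12V and 0.353, 0.276 and 0.636 CPM in Cdk19 KO, so the lowest RasG12V library was above the highest knockout library. Its log2 difference was -2.65 ± 0.33 with all libraries (adjusted p = 0.0388) and -2.49 ± 0.31 without both replicates 3. Cdk8 KO lay between the groups at 0.955, 0.977 and 1.10 CPM, and untransformed cells had almost none (0.0221 ± 0.0193 CPM, SD, n = 3). The stellate cell and fibroblast markers, the list nearest to pericytes, summed to 2.08 to 2.45 CPM in RasG12V and 1.49 to 2.01 CPM in Cdk19 KO, and their part in the Rgs5 difference was not tested.

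Gm38020 is an unconfirmed transcript annotated on the minus strand of the X chromosome (chrX:103576426-103581101, GRCm38), inside the bounds of Ftx, a long non-coding RNA gene on the same strand. It read 0.729, 0.245 and 0.181 CPM in RasG12V, 0.177, 0.190 and 0.335 CPM in Cdk8 KO and 2.75, 3.46 and 3.15 CPM in Cdk19 KO, and it rose by 2.64 ± 0.35 on the log2 scale (adjusted p = 0.000297), or by 3.02 ± 0.40 with all libraries (adjusted p = 0.0388). Only the knockout of Cdk19 had more than 1 CPM among the groups with RasG12V. Ftx around it did not follow, with 8.35, 7.65 and 6.81 CPM in RasG12V and 7.48, 9.54 and 7.53 CPM in Cdk19 KO (log2 difference 0.04 ± 0.14, adjusted p = 0.933). Reads from a gene and one that overlaps it on the same strand are not counted when they fit both, so the counts of this pair are uncertain.

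Crisp1 and Clu, both secreted proteins, were among the falls whose 3 knockout libraries lay below all 3 RasG12V libraries. Crisp1 (chr17:40293758-40319207), a cysteine-rich secretory protein known from the epididymis, read 77.2, 76.8 and 57.8 CPM in RasG12V and 18.1, 19.7 and 21.8 CPM in Cdk19 KO, a 3.86-fold fall (-1.95 ± 0.08 on the log2 scale, adjusted p = 8.24e-12). The groups were far apart, and Cdk8 KO stayed at the RasG12V level (68.3, 74.3 and 77.2 CPM). Untransformed cells read 120.1, 122 and 3.19 CPM. With all libraries, which adds untransformed 3 and RasG12V 3, the difference was -1.83 ± 0.76 (adjusted p = 0.614).

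Clu (chr14:65968483-65981547), the secreted chaperone clusterin and an abundant liver product, fell 2.08-fold. It read 2467, 2524 and 2114 CPM in RasG12V and 1162, 1082 and 1339 CPM in Cdk19 KO (log2 difference -1.06 ± 0.08, adjusted p = 1.22e-07). All 3 RasG12V libraries lay above the knockout libraries, and Cdk8 KO read 2427, 2548 and 2675 CPM. With all libraries the difference was -0.99 ± 0.25 (adjusted p = 0.325). It was also the only 1 of 12 tested genes of hepatocyte function that passed, and their median log2 difference was 0.05.

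Cyp2c68, a cytochrome P450, passed also with RasG12V 3 alone left out. It read 9.80, 7.40 and 18.8 CPM in RasG12V and 1.94, 2.04 and 3.48 CPM in Cdk19 KO, and the log2 difference was -1.79 ± 0.24 in the 11-library fit (adjusted p = 0.0138) and -2.27 ± 0.34 with all libraries (adjusted p = 0.0882). RasG12V 3 was the highest library, so it enlarged the difference. The Cyp2c genes resemble each other, and a read with more than 1 place in the genome was left uncounted, so its level is uncertain.

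Scg2, Stc1 and Synpr were further falls. Scg2 (secretogranin II, a precursor packed in secretory granules) read 5.25, 5.68 and 10.9 CPM in RasG12V and 2.08, 1.80 and 2.98 CPM in Cdk19 KO and fell 2.37-fold. Stc1, the secreted glycoprotein stanniocalcin 1, read 46.2, 48.6 and 89.1 CPM and 24.7, 18.6 and 30.6 CPM in the same order and fell 1.92-fold. Synpr, a synaptic vesicle membrane protein, read 4.99, 5.15 and 6.63 CPM and 2.43, 2.45 and 2.68 CPM and also fell. RasG12V 3 was the highest of the 6 libraries for all 3 genes, and their adjusted p were 0.00549, 0.0184 and 0.00247. These genes were near 0 in untransformed cells, at most 0.802 ± 0.412 CPM (SD, n = 3) for Stc1. Angptl4, a secreted inhibitor of lipoprotein lipase, read 91.8, 86.2 and 63.5 CPM and 48.2, 48.7 and 61.5 CPM and fell 1.68-fold (adjusted p = 0.000224).

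Pcdh9, Cdh6 and Nt5e encode surface proteins that fell. Pcdh9, a protocadherin, read 14.2, 13.9 and 10.3 CPM in RasG12V and 6.91, 6.36 and 7.63 CPM in Cdk19 KO (log2 difference -1.004 ± 0.16, adjusted p = 0.00276). Cdh6, a classical cadherin of developing epithelia, read 58.6, 63.3 and 42.1 CPM and 37.3, 36.3 and 37.9 CPM (-0.71 ± 0.09, adjusted p = 0.000193). Nt5e, the ectonucleotidase CD73, read 13.4, 14.1 and 19.5 CPM and 7.23, 9.88 and 8.17 CPM (-0.70 ± 0.13, adjusted p = 0.00732). These genes were chosen with all knockout libraries below every RasG12V library. RasG12V 3 was nearest to the knockout for Pcdh9 and Cdh6 and farthest from it for Nt5e. Srgap1, a GTPase-activating protein that acts downstream of Slit and Robo, read 50.1, 56.02 and 37.1 CPM and 36.8, 33.2 and 31.99 CPM and fell 1.55-fold (adjusted p = 0.000863). Hoxb6, a homeobox transcription factor, read 10.02, 10.2 and 7.54 CPM and 4.44, 7.19 and 5.59 CPM (-0.81 ± 0.19, adjusted p = 0.0454), with RasG12V 3 close above the highest knockout library.

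**Figure D3:**
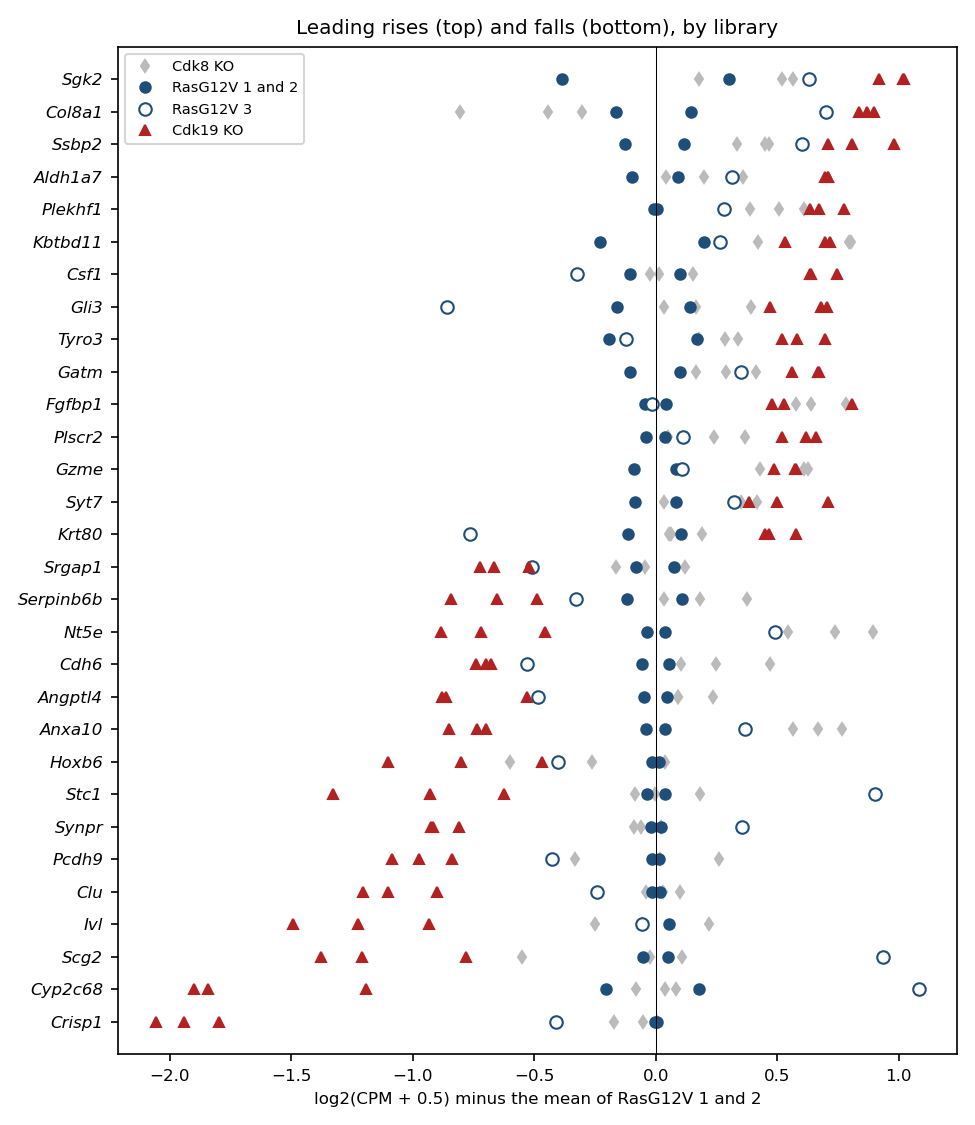
Each row is a gene and each point a library, placed by its log2(CPM + 0.5) minus that of the mean of RasG12V 1 and 2 (horizontal axis): Cdk19 KO red triangles, RasG12V 1 and 2 filled blue circles, RasG12V 3 open circle, Cdk8 KO grey diamonds. Shown are the 15 largest rises and 15 largest falls among called protein-coding genes with at least 5 CPM in the higher group and no overlap between Cdk19 KO and any RasG12V library, and in the falls Crisp1, Clu and Synpr the grey diamonds sit with RasG12V.

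Genes of the cornified envelope, the crosslinked protein layer of squamous epithelia, were among the falls. Ivl, which encodes the envelope protein involucrin, read 16.6, 17.9 and 16.5 CPM in RasG12V and 7.09, 5.81 and 8.80 CPM in Cdk19 KO and fell 2.37-fold (-1.24 ± 0.16 on the log2 scale, adjusted p = 0.000837). Sprr2h, a small proline-rich envelope precursor, read 44.03, 47.4 and 35.6 CPM and 31.1, 31.9 and 32.4 CPM (-0.52 ± 0.08, adjusted p = 0.00148). Every knockout library was below every RasG12V library for Sprr2h, and also for Ivl, where this was part of the choice. Perp, a desmosome protein that is also a target of p53, read 338, 335 and 322 CPM and 286, 289 and 278 CPM (-0.24, adjusted p = 0.0461). Against them Krt80, a keratin, rose, with 11.5, 9.81 and 6.06 CPM and 14.9, 16.1 and 14.7 CPM (0.52, adjusted p = 0.0126). Of 12 tested genes of squamous and urothelial differentiation, 1 rose and 3 fell, against 1.11% and 0.897% of all genes tested. The median log2 difference of the list was -0.28 with and without both replicates 3. Without them it was the lowest of 42 gene lists, which were written with earlier results of these data known.

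Serpinb2, Serpinb6b, Anxa10 and Plat also fell. Serpinb2, the plasminogen activator inhibitor PAI-2, read 38.2, 38.5 and 10.3 CPM in RasG12V and 18.02, 20.6 and 17.97 CPM in Cdk19 KO. Its log2 difference was -1.02 ± 0.09 (adjusted p = 2.93e-06), but RasG12V 3 lay below all knockout libraries, and with it the difference was -0.61 ± 0.49 (adjusted p = 0.805). Serpinb6b read 8.67, 10.2 and 7.42 CPM and 5.82, 5.05 and 6.59 CPM without overlap (-0.69, adjusted p = 0.0138). Anxa10, an annexin of the gastric epithelium, read 25.2, 23.8 and 31.8 CPM and 14.5, 13.4 and 14.9 CPM, again without overlap (-0.78, adjusted p = 6.6e-05). The lack of overlap for Serpinb6b and Anxa10 was part of their choice, as was the place of RasG12V 3 for Serpinb2. Plat, the tissue-type plasminogen activator, read 372, 406 and 354 CPM and 303, 298 and 332 CPM (-0.32, adjusted p = 0.0236). With Serpinb2, Plat was 1 of the 2 falls among 19 tested matrix proteases and inhibitors, where 0 rose.

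AP-1, the dimer of Fos and Jun proteins, is a known regulator of envelope and serpin genes and a target of Ras signalling, so the promoters of the fallen genes were searched for it. The search used TGANTCA on both strands (it is its own reverse complement) in RefSeq promoters of build GRCm38.p6, 250 bases before to 50 after the first listed start of each gene. It was found in 8 of 89 fallen genes with a listed promoter (8.99%), in 7 of 119 risen genes (5.88%), in 5.22% of 10051 tested genes and in 7.93% of all 27025 promoters. A match is a description, not a binding site. The 250 bases before the start are shown for Ivl, Sprr2h, Serpinb2 and Anxa10, chosen because they hold a match, and for Crisp1, which holds none; capitals mark the matches. They start at -116 in Ivl (chr3:92573736-92573985, minus strand), at -198 in Sprr2h (chr3:92385435-92385684, plus strand), at -94 in Serpinb2 (chr1:107511173-107511422, plus strand) and at -180 and -16 in Anxa10 (chr8:62123194-62123443, minus strand), counted from the start site. The Crisp1 stretch is chr17:40319208-40319457, minus strand.
Ivl: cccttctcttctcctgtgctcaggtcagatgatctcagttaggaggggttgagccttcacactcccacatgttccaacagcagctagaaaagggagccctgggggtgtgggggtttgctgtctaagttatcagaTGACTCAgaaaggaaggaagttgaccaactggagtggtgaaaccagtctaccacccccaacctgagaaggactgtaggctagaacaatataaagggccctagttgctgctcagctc
Sprr2h: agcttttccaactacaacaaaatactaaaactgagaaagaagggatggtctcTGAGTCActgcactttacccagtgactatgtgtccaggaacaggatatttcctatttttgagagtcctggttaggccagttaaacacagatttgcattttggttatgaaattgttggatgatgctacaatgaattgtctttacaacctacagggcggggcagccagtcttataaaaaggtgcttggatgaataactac
Serpinb2: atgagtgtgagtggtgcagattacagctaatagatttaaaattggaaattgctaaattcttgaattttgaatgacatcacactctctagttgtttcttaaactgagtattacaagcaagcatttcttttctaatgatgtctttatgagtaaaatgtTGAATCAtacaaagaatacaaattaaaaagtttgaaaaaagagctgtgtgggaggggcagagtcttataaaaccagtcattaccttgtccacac
Anxa10: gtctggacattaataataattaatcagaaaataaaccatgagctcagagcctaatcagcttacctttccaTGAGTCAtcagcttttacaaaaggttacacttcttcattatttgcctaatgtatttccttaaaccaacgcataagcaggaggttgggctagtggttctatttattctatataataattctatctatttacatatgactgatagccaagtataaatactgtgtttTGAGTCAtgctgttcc
Crisp1: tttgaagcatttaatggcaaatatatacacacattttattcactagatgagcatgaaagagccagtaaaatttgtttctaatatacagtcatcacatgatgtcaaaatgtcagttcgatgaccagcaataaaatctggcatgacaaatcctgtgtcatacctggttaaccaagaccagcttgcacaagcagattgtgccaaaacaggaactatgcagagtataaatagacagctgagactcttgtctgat

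Motifs of 3 other factors were searched in the same way. The antioxidant response element TGACNNNGC (reverse complement GCNNNGTCA) was in 12.6% of risen, 8.99% of fallen and 14.8% of tested genes. The STAT motif TTCNNNGAA, its own reverse complement, was in 8.40%, 10.1% and 6.84% in that order, and the TCF motif CTTTGAT (reverse complement ATCAAAG) in 1.68%, 1.12% and 2.40%. These shares rest on 119 risen and 89 fallen promoters and were not tested.

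Of the protein-coding rises without overlap and with at least 5 CPM in Cdk19 KO, Sgk2, Col8a1 and Ssbp2 had the largest differences. Sgk2, a serum- and glucocorticoid-regulated kinase, read 1.97, 3.48 and 4.49 CPM in RasG12V and 6.03, 6.05 and 5.59 CPM in Cdk19 KO (1.13 ± 0.20 on the log2 scale, adjusted p = 0.00577). Col8a1, a short-chain collagen, read 3.54, 4.50 and 6.84 CPM and 7.76, 7.91 and 7.56 CPM (0.96 ± 0.17, adjusted p = 0.00468). Ssbp2, a single-stranded DNA binding protein that works with LIM-domain factors, read 3.39, 4.09 and 5.94 CPM and 7.87, 6.43 and 6.93 CPM and passed also in the 11-library fit (0.92 ± 0.15, adjusted p = 0.0361). In all 3 genes RasG12V 3 was the RasG12V library nearest to the knockout.

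Other rises had RasG12V 3 on the side of its group. Csf1, the growth factor of macrophages, read 36.6, 42.2 and 31.3 CPM in RasG12V and 61.4, 66.5 and 61.7 CPM in Cdk19 KO, a 1.61-fold rise (adjusted p = 8.4e-05). Gli3, a transcription factor of the Hedgehog pathway, read 4.52, 5.68 and 2.59 CPM and 8.46, 8.64 and 7.26 CPM (0.68, adjusted p = 0.0255). Tyro3, a receptor tyrosine kinase, read 3.13, 4.17 and 3.32 CPM and 5.71, 5.46 and 6.22 CPM (0.68, adjusted p = 0.0302). For Csf1, Gli3 and Krt80 the library RasG12V 3 was the lowest of the 6, so the difference was larger with it than without it: the all-library log2 values were 0.78, 0.94 and 0.75, none of them past the threshold. Fgfbp1, a secreted carrier of fibroblast growth factors, read 16.2, 17.3 and 16.5 CPM and 23.5, 29.6 and 24.3 CPM and rose 1.55-fold (adjusted p = 0.00227). Aldh1a7, an aldehyde dehydrogenase, Plekhf1, Kbtbd11, Gatm, Plscr2, Gzme and Syt7 rose too, each with RasG12V 3 below every knockout library, with log2 differences of 0.73, 0.72, 0.71, 0.67, 0.61, 0.61 and 0.57.

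H1f0, the replacement linker histone H1.0 of slowly dividing and differentiating cells, rose at a high level. It read 520.3, 549 and 768 CPM in RasG12V, 839.6, 735 and 774 CPM in Cdk19 KO and 453, 480.5 and 477 CPM in Cdk8 KO. The log2 difference from RasG12V was 0.55 ± 0.08 in the 11-library fit (adjusted p = 0.0263) and 0.35 ± 0.13 with all libraries (adjusted p = 0.547), where RasG12V 3 fell inside the knockout range. Replication-dependent histones had 0 of 12 tested members past the threshold, with a median log2 difference of 0.05; 0 had an unadjusted p below 0.05, and DESeq2 and limma-voom called 0.

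Genes of drug metabolism and antioxidant defence gave the largest positive medians, and RasG12V 3 was above the knockout for most of those that rose. Gstm1 (chr3:108012255-108017973), a glutathione transferase, read 5.98, 6.46 and 31.7 CPM in RasG12V and 18.8, 14.6 and 18.8 CPM in Cdk19 KO. It rose 2.81-fold (adjusted p = 0.00385; 0.0138 in the 11-library fit), but the all-library difference was 0.23 ± 0.49 on the log2 scale. Aldh3a1, an aldehyde dehydrogenase, read 1.09, 0.941 and 5.70 CPM and 4.27, 3.32 and 3.58 CPM and rose 3.65-fold (adjusted p = 0.000164), and Gsta1 read 0.911, 0.695 and 4.73 CPM and 2.57, 1.80 and 2.44 CPM (1.49, adjusted p = 0.0023). Ephx1, the microsomal epoxide hydrolase, read 54.6, 51.9 and 165 CPM and 89.9, 71.99 and 92.2 CPM (0.68, adjusted p = 0.0255) and had the opposite sign with all libraries (-0.10). All 4 genes were higher in RasG12V 3 than in any knockout library, which for Gstm1 and Ephx1 was part of the choice. Untransformed cells had more of Gstm1 and Ephx1 than any of the 6, 95.4, 83.02 and 73.6 CPM and 331, 289 and 364 CPM. Gstm1 and Gsta1 have near-identical relatives whose shared reads were not counted.

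Of 25 tested drug metabolism genes 4 rose and 0 fell, against 1.11% and 0.897% of all genes tested. The median log2 difference of the list was 0.31 without both replicates 3 and -0.06 with all libraries. The median log2 ratio of RasG12V 3 to RasG12V 1 and 2 in the same list was 0.63. Of 23 tested NRF2 and antioxidant targets 2 rose, Aldh3a1 and the ferritin heavy chain Fth1, and 19 of 23 had a positive difference, with a median of 0.23 against 0.03 with all libraries. Fth1 read 701, 630.0 and 917 CPM in RasG12V and 842, 822 and 933 CPM in Cdk19 KO (0.39, adjusted p = 0.00958). Nqo1 and Hmox1, further NRF2 targets, differed by 1.02 ± 0.46 and 0.34 ± 0.09 on the log2 scale and did not pass (adjusted p = 0.295 and 0.0797).

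Gut and mucous epithelial genes moved in both directions. Lgals4 (chr7:28833854-28841708), a galectin of the gut epithelium, read 6.89, 7.24 and 54.2 CPM in RasG12V and 20.95, 19.9 and 22.2 CPM in Cdk19 KO. It rose 2.99-fold (adjusted p = 8.84e-08; 0.00047 in the 11-library fit) and had a log2 difference of -0.13 ± 0.58 with all libraries. Cdk8 KO read 12.8, 16.98 and 15.1 CPM and untransformed cells 286, 272 and 218 CPM, so RasG12V 3 lay between the other RasG12V libraries and the untransformed ones. Psca, a GPI-anchored antigen of the stomach and urinary tract, read 56.3, 60.3 and 128 CPM and 101, 82.6 and 85.9 CPM (0.63 ± 0.08, adjusted p = 0.000427), also with RasG12V 3 highest. The place of RasG12V 3 above the knockout was part of the choice of Lgals4 and Psca. Of 19 tested genes of the list these 2 rose and 1, Anxa10, fell, against 1.11% and 0.897% of all genes tested. The median log2 difference of the list was 0.09 without both replicates 3 and -0.50 with all libraries.

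Psca lies at one end of a cluster of Ly6 family genes on chromosome 15, which encode small GPI-anchored surface proteins. From Psca to BC025446 (chr15:74714839-75222661) 21 protein-coding genes are annotated and 7 were tested. Of these 4 rose and 0 fell, against 1.11% and 0.897% of all genes tested. Ly6a, known as the stem cell antigen Sca-1, read 1.24, 1.39 and 2.32 CPM in RasG12V and 5.15, 4.08 and 5.49 CPM in Cdk19 KO (1.91 ± 0.21, adjusted p = 6.6e-05), and its groups did not overlap even with RasG12V 3, which was the highest of its group. Ly6c1 read 0.328, 0.327 and 0.844 CPM and 1.73, 1.73 and 1.91 CPM (2.44 ± 0.33, adjusted p = 0.000423), likewise without overlap. BC025446 read 2.30, 2.94 and 4.58 CPM and 4.44, 4.70 and 3.81 CPM (0.73 ± 0.18, adjusted p = 0.0467), with RasG12V 3 inside the knockout range. The other tested members, Them6, Lynx1 and Ly6e, had positive differences of 0.40, 0.57 and 0.78 that did not pass (adjusted p = 0.185, 0.053 and 0.218). Shares per chromosome were taken over genes with a mean of at least 1 CPM. Over the autosomes and X the highest was 4.36% called on chromosome 15, which includes the cluster, and the lowest 0.728% on chromosome 4. Of all genes tested 2.01% were called. The median log2 difference per chromosome ranged only from -0.07 to 0.07 over the autosomes and X. Ly6 genes resemble each other, so reads shared between them were not counted. The cluster was picked out after the values were seen.

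Matrix genes gave calls in both directions. Among 24 tested collagens, laminins and matrix glycoproteins, Col4a2, Col5a1, Sparc and Nid1 rose and the falls included Fn1 and Tnc, with a median log2 difference of 0.13. Over all genes tested 1.11% rose and 0.897% fell. Col5a1, a fibrillar collagen chain, read 1.35, 1.39 and 2.17 CPM in RasG12V and 3.24, 2.52 and 3.71 CPM in Cdk19 KO (1.21 ± 0.26, adjusted p = 0.0199). Nid1, a basement membrane linker, read 0.802, 0.695 and 1.18 CPM and 1.48, 1.87 and 1.61 CPM (1.14 ± 0.26, adjusted p = 0.0297). Sparc, a collagen-binding glycoprotein, read 272, 271 and 318 CPM and 372, 339 and 348 CPM (0.39), and the basement membrane collagen Col4a2 132, 140.0 and 141 CPM and 164, 158 and 177 CPM (0.30). For these 4 rises, chosen as called, every knockout library was above every RasG12V library, while 14.5% of all genes tested had no overlap. With all libraries the log2 differences were 0.94 for Col5a1, 0.87 for Nid1, 0.30 for Sparc and 0.27 for Col4a2, and none passed.

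Tnc and Fn1, glycoproteins of provisional matrix, fell without RasG12V 3 but that library had less of both than the knockout. That position of RasG12V 3 was part of the choice of both genes. Tenascin C (Tnc) read 5.94, 6.34 and 1.33 CPM in RasG12V and 2.79, 2.59 and 3.08 CPM in Cdk19 KO (-1.11 ± 0.17, adjusted p = 0.00112). Fibronectin (Fn1) read 529, 574 and 295 CPM and 401, 364 and 369 CPM (-0.54 ± 0.08, adjusted p = 0.00182). In untransformed cells Tnc was at 0.197 ± 0.0988 CPM (SD, n = 3), below every RasG12V library.

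Genes of cell contacts gave 2 to 4 calls a list, against 2.01% called over all genes. Of 25 tested integrin and focal adhesion genes, Itga2, the collagen-binding integrin alpha 2, fell (476, 516 and 520.2 CPM in RasG12V, 397, 379 and 392 CPM in Cdk19 KO, adjusted p = 0.021) and Cav1, caveolin 1, rose (154, 159 and 147 CPM and 214, 203 and 185 CPM, adjusted p = 0.00732). The desmosomal genes Dsp and Dsg2 fell among 15 tested genes of epithelial junctions, where 0 rose. Dsp, desmoplakin, read 161, 168 and 142 CPM and 133, 124 and 123 CPM, and Dsg2, desmoglein 2, read 4.05, 4.46 and 3.74 CPM and 2.998, 2.28 and 2.41 CPM, both without overlap (adjusted p = 0.00658 and 0.0211). Of 11 tested EMT factors and mesenchymal markers, Cdh6, Nt5e and Fn1 fell and the calcium-binding protein S100a4 rose (2.48, 2.54 and 3.74 CPM and 4.73, 4.49 and 4.75 CPM, adjusted p = 0.00866).

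Wnt and Notch components that fell did so at modest size. Rnf43, the E3 ligase that removes Wnt receptors and is itself a target of Wnt signalling, read 23.7, 21.8 and 24.3 CPM in RasG12V and 16.7, 15.5 and 16.8 CPM in Cdk19 KO (-0.47 ± 0.09, adjusted p = 0.00735). Wnt5a, a ligand of the non-canonical pathway, read 27.2, 28.1 and 49.2 CPM and 18.4, 18.5 and 21.3 CPM (-0.51 ± 0.10, adjusted p = 0.00735). They were the only falls among 19 tested Wnt genes, with 0 rises and a median log2 difference of -0.003. Jag1, a Notch ligand, read 172, 176 and 165 CPM and 137, 131 and 143 CPM (-0.34, adjusted p = 0.0255) and was the only 1 of 14 Notch genes to pass. None of the 3 genes, which were chosen as called, had a knockout library above any RasG12V library. Over all genes tested, called or not, 14.5% had no overlap.

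TGF-beta and NF-kB targets gave calls in both directions. Tgfbr2, the type II receptor of TGF-beta, rose (77.3, 78.4 and 106 CPM in RasG12V, 94.3, 93.001 and 102 CPM in Cdk19 KO, adjusted p = 0.0193) and Pmepa1, a feedback inhibitor of the pathway, fell (89.8, 78.5 and 47.4 CPM and 59.8, 60.6 and 57.9 CPM, adjusted p = 0.00163), 1 of each among 24 tested genes. RasG12V 3 was beyond the knockout libraries for both. Of 17 tested NF-kB targets, Csf1, the adhesion receptor Vcam1 and Tnfaip2 rose and Cflar, an inhibitor of caspase 8, fell. Tnfaip2 read 61.8, 62.3 and 149.8 CPM in RasG12V and 93.2, 78.2 and 95.5 CPM in Cdk19 KO, with RasG12V 3 above every knockout library, and its log2 difference was 0.53 without both replicates 3 (adjusted p = 0.00735) and -0.0395 with all libraries. Vcam1 read 150.4, 159.9 and 214 CPM and 188, 171 and 196 CPM and Cflar 165, 179 and 141 CPM and 140.2, 149 and 134 CPM, at adjusted p = 0.0487 and 0.0467. Among 10 tested cytokines and chemokines, Csf1 rose and Il33, an alarmin of the interleukin 1 family, fell (385, 370.2 and 471 CPM and 312, 321 and 307 CPM, adjusted p = 0.0429).

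The output of the Ras pathway itself showed few calls. Of 21 tested ERK output genes 0 passed the edgeR test in the 3 fits of the comparison. Without both replicates 3 their median log2 difference was 0.002, and DESeq2 called 1 and limma-voom 0. In that fit 8 of the 21 had an unadjusted p below 0.05, a larger share than the 15.5% of all genes. Fosb, an AP-1 subunit, was the only 1 of 19 immediate early genes that passed: it read 11.6, 11.8 and 5.85 CPM in RasG12V and 7.44, 8.43 and 8.50 CPM in Cdk19 KO and fell 1.43-fold (adjusted p = 0.0297), with RasG12V 3 below the knockout. Of 27 tested Ras family and effector genes Hras and Rassf1 fell, the latter with 108, 99.9 and 54.7 CPM and 78.9, 86.02 and 83.4 CPM (adjusted p = 0.0138). In untransformed cells Fosb was at 0.742 ± 0.258 CPM and Hras at 49.98 ± 8.57 CPM (SD, n = 3), so every Cdk19 KO library stayed well above the untransformed level of both.

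Of 32 tested genes of p53 and its targets 3 fell and 0 rose, against 0.897% and 1.11% of all genes tested. Pmaip1, which encodes the BH3-only protein Noxa, read 271, 265 and 165 CPM in RasG12V and 207, 205 and 198 CPM in Cdk19 KO (-0.39 ± 0.06, adjusted p = 0.00114), with RasG12V 3 below the knockout. Ccng1, cyclin G1, read 2716, 2583 and 2251 CPM and 2167, 2287 and 2145 CPM (-0.26 ± 0.06, adjusted p = 0.027), and here RasG12V 3 was inside the knockout range. Perp was the other fall. Of the 32 genes 13 had a positive difference, and the median log2 difference was -0.06. Trp53 read 249.8, 265 and 252 CPM and 304, 293 and 294 CPM (0.21 ± 0.06, adjusted p = 0.0737) and Cdkn1a, the p53 target p21, 383, 368 and 392 CPM and 398, 405 and 428 CPM (0.14 ± 0.06, adjusted p = 0.295); neither passed.

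No tested gene of DNA replication or mitosis passed the edgeR test in the 3 fits of the comparison. Of 36 tested genes of DNA replication and 30 of mitosis, 0 were called in either direction, with median log2 differences of 0.01 and -0.09 without both replicates 3. With all libraries the medians were 0.26 and 0.12, and the median log2 ratio of RasG12V 3 to RasG12V 1 and 2 was -0.98 for replication and -0.82 for mitosis. Without both replicates 3, 6 and 3 genes of these lists had an unadjusted p below 0.05, and DESeq2 and limma-voom called 0. MYC targets of ribosome biogenesis had 0 of 24 called, 1 with an unadjusted p below 0.05, medians of -0.04 and 0.12 in the same order, and -0.66 in RasG12V 3.

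Liver lineage factors and biliary keratins moved little. Of 24 tested liver transcription factors Onecut2 and Prox1 fell, both factors of early liver development. Onecut2 read 78.1, 84.5 and 71.02 CPM in RasG12V and 66.1, 56.7 and 52.8 CPM in Cdk19 KO (-0.47, adjusted p = 0.00807), and Prox1 read 13.6, 14.6 and 15.6 CPM and 11.1, 10.3 and 10.6 CPM (-0.39, adjusted p = 0.0489), both without overlap. Krt7, a keratin of cholangiocytes, read 215, 196 and 281 CPM and 267, 266 and 286 CPM and rose 1.33-fold (adjusted p = 0.00183), with RasG12V 3 inside the knockout range, and it was the only 1 of 12 tested cholangiocyte and progenitor genes that passed.

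Lipid synthesis, the unfolded protein response, lysosomal genes and antigen presentation had 1 called gene each. Scd1, the stearoyl-CoA desaturase, rose among 30 tested genes of cholesterol and fatty acid synthesis (8.05, 8.96 and 22.3 CPM in RasG12V, 14.002, 13.4 and 15.6 CPM in Cdk19 KO, adjusted p = 0.00266), with RasG12V 3 above the knockout. Creld2, an endoplasmic reticulum stress gene, rose among 27 tested (35.5, 31.4 and 27.5 CPM and 42.3, 40.1 and 44.4 CPM, adjusted p = 0.0297) without overlap. Ctsc, the lysosomal protease cathepsin C, fell among 23 tested (42.6, 42.5 and 58.8 CPM and 28.9, 31.7 and 36.8 CPM, adjusted p = 0.027), also without overlap. Tapbp, tapasin of the peptide-loading complex, rose among 14 tested genes of antigen presentation, at 7.51, 5.56 and 23.8 CPM and 9.63, 9.16 and 12.05 CPM (adjusted p = 0.0236), and reversed to -0.27 on the log2 scale with all libraries.

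Over all 42 lists 804 different genes were tested, of which 22 rose and 31 fell, 6.59% against 2.01% of all genes. The lists were written with earlier results of these data known, so this share is no independent sign. In 16 lists no member passed, among them interferon response (0 of 17 tested), glycolysis and hypoxia (0 of 28), the IGF axis (0 of 15), nuclear genes of oxidative phosphorylation (0 of 28) and guidance molecules (0 of 30). Their members with an unadjusted p below 0.05 numbered 1, 6, 2, 6 and 7 in that order, limma-voom called 0, and DESeq2 called 2 for glycolysis and hypoxia and 2 for guidance molecules.

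**Figure D4:**
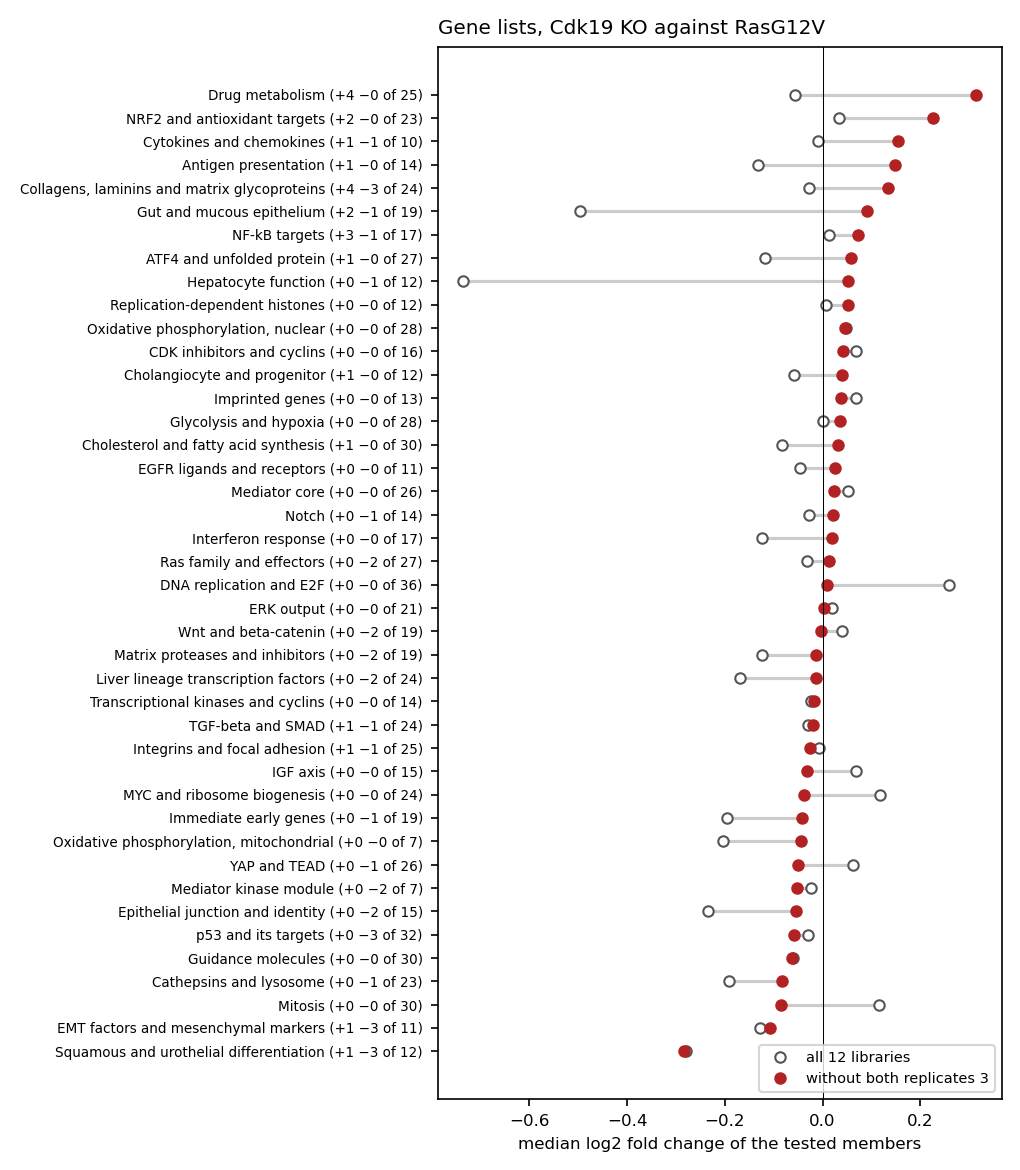
Median log2 fold change of the tested members of each gene list in Cdk19 KO against RasG12V (horizontal axis), without untransformed replicate 3 and RasG12V replicate 3 (red) and with all 12 libraries (open); the labels give the members that rose and fell without both replicates 3 and the number tested. Drug metabolism (0.31) and squamous differentiation (-0.28) mark the ends of the red points, and the open point of drug metabolism falls to -0.06 while that of the squamous list stays at -0.28.

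Cdk19 KO was compared with Cdk8 KO directly to see which genes differ between the knockouts. The RasG12V libraries are not in the contrast itself, but they enter the filter, the scaling and the estimate of the spread. With all 12 libraries in the fit, 4 genes were higher and 11 lower in Cdk19 KO among 14283 tested, 0.105% (0.028% and 0.077%). The comparison of each knockout with RasG12V shares the RasG12V libraries, so only this direct contrast tests a difference between them. The count was 0 to 5 when any 1 of the 6 knockout libraries was left out, and it was 1 without Cdk8 KO 1, 5 without Cdk8 KO 2, 0 without Cdk8 KO 3, 0 without Cdk19 KO 1, 1 without Cdk19 KO 2 and 0 without Cdk19 KO 3.

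Nt5e, Cdh6, Sprr2h and Scel were lower in Cdk19 KO than in Cdk8 KO. Nt5e read 20.3, 25.99 and 23.3 CPM in Cdk8 KO and 7.23, 9.88 and 8.17 CPM in Cdk19 KO, with RasG12V between them at 13.4, 14.1 and 19.5 CPM (log2 difference between the knockouts -1.46 ± 0.16, adjusted p = 0.00622). Cdh6 had the same order, with 72.4, 65.5 and 84.5 CPM in Cdk8 KO against 37.3, 36.3 and 37.9 CPM (-0.995 ± 0.15, adjusted p = 0.0363). So did Sprr2h, with 73.02, 68.3 and 81.8 CPM against 31.1, 31.9 and 32.4 CPM (-1.23 ± 0.18, adjusted p = 0.0291), and Scel, another envelope gene, with 46.1, 48.04 and 47.7 CPM against 29.2, 26.8 and 30.8 CPM (-0.71 ± 0.08, adjusted p = 0.00622). For all 4 the 3 Cdk8 KO libraries were above every RasG12V library and the 3 Cdk19 KO libraries below.

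Rnf43 read 27.1, 24.5 and 27.8 CPM in Cdk8 KO and 16.7, 15.5 and 16.8 CPM in Cdk19 KO (-0.70 ± 0.09, adjusted p = 0.00998). Crb2, a polarity protein, read 1.45, 1.06 and 1.25 CPM and 0.353, 0.311 and 0.368 CPM (-1.85 ± 0.26, adjusted p = 0.0188). The actin-associated genes Palld, Pdlim5 and Pls3 differed by -0.52 ± 0.07, -0.39 ± 0.06 and -0.41 ± 0.06, and Gimd1 and Cfap69 by -0.71 ± 0.09 and -0.65 ± 0.10. For Palld and Pls3 the differences from RasG12V were -0.16 and -0.19 and did not pass (adjusted p = 0.263 and 0.122).

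Higher in Cdk19 KO were Gm38020, Gm5939, Adgra2 and Pcx. Gm38020 differed by 3.71 ± 0.42 (adjusted p = 0.00622) and Gm5939, a gene model on the X chromosome, by 1.67 ± 0.26 (adjusted p = 0.0362; 0.884, 0.543 and 0.761 CPM in Cdk8 KO, 2.998, 1.97 and 1.97 CPM in Cdk19 KO). Adgra2, an adhesion receptor that takes part in Wnt7 signalling, read 43.6, 38.7 and 40.5 CPM in Cdk8 KO, 52.96, 54.6 and 53.99 CPM in RasG12V and 70.1, 75.9 and 76.4 CPM in Cdk19 KO (0.86 ± 0.14, adjusted p = 0.0446). Pcx, pyruvate carboxylase, read 21.7, 20.996 and 20.5 CPM, 25.1, 25.9 and 26.9 CPM and 32.8, 29.2 and 31.6 CPM in that order (0.57 ± 0.08, adjusted p = 0.0183). RasG12V lay between the knockouts for Adgra2 and Pcx, with no overlap between the 3 groups.

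Clu, Crisp1, Ivl and Cyp2c68, which fell against RasG12V, were not called between the knockouts. Clu differed by -1.09 ± 0.25 (adjusted p = 0.186), Crisp1 by -1.88 ± 0.76 (adjusted p = 0.636), Ivl by -1.24 ± 0.75 (adjusted p = 0.846) and Cyp2c68 by -1.80 ± 0.33 (adjusted p = 0.0769). Their Cdk19 KO libraries lay below all 3 Cdk8 KO libraries in each case, and the SE of this fit carry the spread of RasG12V 3 and untransformed 3.

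**Figure D5:**
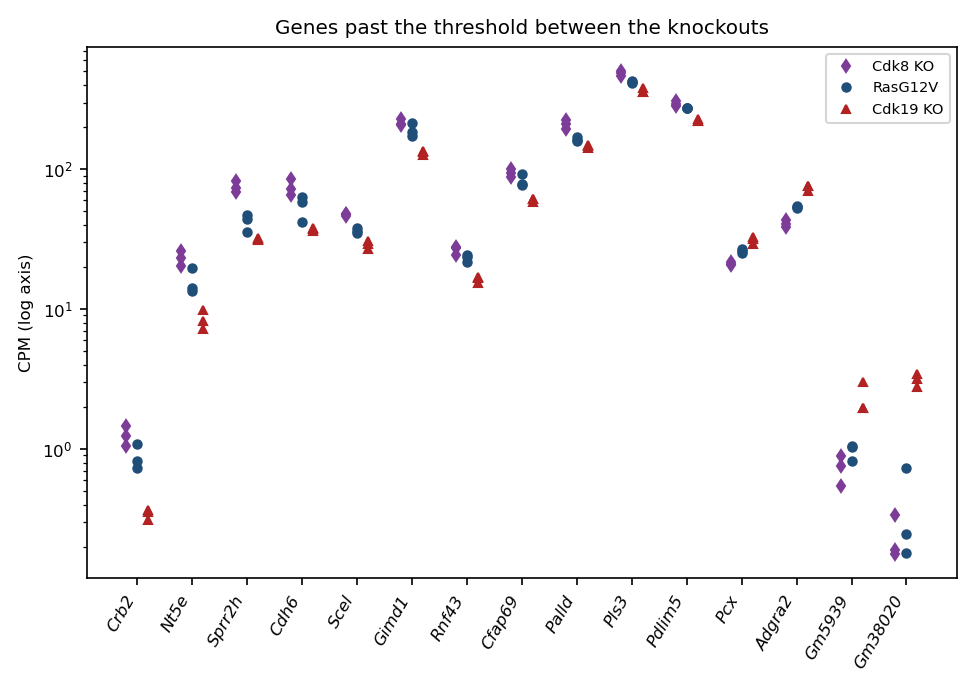
CPM (log axis) of the 15 genes that passed between the knockouts, ordered by the log2 difference from lower to higher in Cdk19 KO, in the 3 libraries each of Cdk8 KO (purple diamonds), RasG12V (blue circles) and Cdk19 KO (red triangles). For Nt5e, Cdh6, Sprr2h and Scel the blue points lie between the purple points above and the red points below, and for Adgra2 and Pcx the order is turned around.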

How the data were processed

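RNA of 12 BMEL libraries was sequenced after removal of ribosomal RNA, per the labels, with 3 libraries in each of 4 groups given by the titles. Each library's deposited table gives counts of reads per Ensembl gene, once without strand and once for each strand. The submitters' processing notes name FastQC, STAR 2.6.0a and the build GRCm38.p6. The annotation release is not given in the sources used here. The counts of the reverse strand (column 4) were used. In the 6 libraries of the comparison they were 24.7 to 28.0 times those of the forward strand. Multimapping reads were 24.8% to 26.2% of the reads there, reads outside genes 4.70% to 5.83%, ambiguous reads 0.963% to 1.04% and unmapped reads 2.10% to 2.57%, and library sizes hold none of them. Gene counts per library ran from 24823560 to 33285861. A count of 0 allows up to 3 counts, which is 0.0901 to 0.121 CPM and covers the error of counting alone, because PCR copies cannot be told from separate molecules. GENCODE M21 gave a symbol for 54079 of 54146 identifiers.

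Tests were run in R 4.3.3 with edgeR 4.0.16: low genes were removed with filterByExpr, libraries scaled with TMM factors, and group was the only term of a robust glmQLFit followed by glmQLFTest. P-values were adjusted by Benjamini and Hochberg's method across every gene tested, and calls are at 0.05. All groups were in each model, which pools their spread. Cdk19 KO was set against RasG12V with all 12 libraries, with 11 (RasG12V replicate 3 left out) and with 10 (untransformed and RasG12V replicates 3 left out), and against Cdk8 KO with all 12. The SE was derived from the fold change and the F statistic and is approximate. CPM carry the TMM factors of the 12-library fit. The steps were tested on simulated data with the same spread for every gene and library and no outlying library. That test therefore does not cover the effect of RasG12V 3 and untransformed 3 on the calls. Alternatives were RLE and upper quartile factors, no removal of low genes, DESeq2 1.42.0, a minimum of 1 CPM in 3 libraries, counts without strand, limma-voom (limma 3.58.1) with and without sample weights, a replicate block, models of the compared groups alone, and each library left out. Those of the 10-library fit were added after the data had been seen.

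The comparison, gene lists and rules were chosen with earlier results of these data known. Cdk19, Cdk8 and Hras were always named. Other names were protein-coding genes past the threshold with at least 5 CPM in the higher group. With all libraries, up to 8 rises and 8 falls without overlap were taken, which gave none. With 11 libraries, up to 10 each way without overlap gave Ssbp2 and Cyp2c68, and up to 5 each way with RasG12V 3 beyond the knockout gave Lgals4, Gstm1 and Psca. Up to 3 members of each list were taken in the order of their adjusted p with 11 libraries; since few passed there, they had to pass with 10 libraries, whatever their CPM. The rule's parts for non-coding genes and for genes that also differ from Cdk8 KO gave none. Chosen after the values were seen were the same rules applied to the 10-library fit (up to 15 rises and 15 falls), genes past the threshold in the other fits, the Ly6 cluster, the promoters shown and further members of lists with few calls. Some members of the lists are not reported here. Promoters are RefSeq sequences of GRCm38.p6. Figures were drawn with matplotlib 3.10.9.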

Additional observations from a re-analysis of the deposited data

Results flagged for a closer look

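Differences between the 2 knockouts were tested directly, and 15 genes passed (edgeR quasi-likelihood test, all 12 libraries, Benjamini-Hochberg adjusted p below 0.05). Lower in Cdk19 KO than in Cdk8 KO were Crb2 (log2 difference -1.85), Nt5e (-1.46), Sprr2h (-1.23), Cdh6 (-0.995), Scel (-0.71), Gimd1 (-0.71), Rnf43 (-0.70), Cfap69 (-0.65), Palld (-0.52), Pls3 (-0.41) and Pdlim5 (-0.39). Higher in Cdk19 KO were Pcx (0.57), Adgra2 (0.86), Gm5939 (1.67) and Gm38020 (3.71). Single genes were not checked for an outlying library, since each group holds 3 libraries.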

How the results depend on the processing

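RLE or upper quartile scaling changed no count of calls by more than 1.5 times. With all 12 libraries 2 genes were called, against 84 without a filter on low counts, 66 with DESeq2, 1 with only the compared groups, 280 with limma-voom sample weights and 291 without both replicates 3; leaving out 1 library gave 0 to 10. Without RasG12V 3, 10 genes were called, against 166 without the filter, 86 with DESeq2, 6 with limma-voom, 278 with only the compared groups and 291 without untransformed 3 as well; leaving out a further library gave 1 to 5. Without both replicates 3, 291 were called, against 603 without the filter and 189 with limma-voom; the count was 42 without RasG12V 1, 40 without RasG12V 2 and 141 without Cdk19 KO 1, and within 1.5 times of 291 without Cdk19 KO 2 or 3. Between the knockouts 15 were called, against 108 without the filter and 115 with DESeq2; leaving out 1 library gave 0 to 5. The cause of these moves was not tested, other than that a fit with a library left out holds fewer samples.

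The log2 difference of Cdk19 (-0.60 with all libraries) passed without the filter (-0.60, adjusted p = 0.000196), with DESeq2 (-0.59, 0.0179), with sample weights (-0.44, 0.00861) and without both replicates 3 (-0.40, 0.0136), and the cause was not tested. That of Cdk8 changed sign near 0, to -0.0301 with sample weights and -0.0274 without both replicates 3, and ran from -0.0326 to 0.0446 when 1 library was left out, with -0.0109 without Cdk19 KO 2. That of Hras passed without both replicates 3 (-0.30, adjusted p = 0.0133) and ran from -0.31 to 0.0380 when 1 library was left out. Of 95 genes called without both replicates 3 and taken by the rules or held by the lists and the Ly6 cluster, 5 had the other sign with all libraries, Lgals4 (-0.13), Tapbp (-0.27), Ephx1 (-0.0993), Smim6 (-0.0781) and Tnfaip2 (-0.0395), and 88 kept their sign and did not pass.

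The groups share replicate numbers, and the deviations of same-numbered RasG12V and Cdk19 KO libraries from their group means correlated at -0.03, 0.32 and 0.37. RasG12V 2 and RasG12V 3 correlated best with the library of the same number, and RasG12V 1 with Cdk19 KO 2 (0.32). Deviations from a mean of 3 libraries depend on each other, so these values do not settle whether the numbers mark a pairing. With the replicate block 2, 6, 231 and 17 genes were called in the 4 comparisons in the order above, and 23 of the 95 genes lost their call without both replicates 3. Genes at a few CPM are limited by depth.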
